A study of Xenopus laevis with 8 samples.

Results

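The genes of fibroblast growth factor (FGF) signalling were followed through gastrulation in animal cap explants of the frog Xenopus laevis. They comprise the FGF ligands, the FGF receptors, and the inhibitors and transcription factors that FGF signalling itself switches on. Members were chosen by gene symbol alone, as those beginning with fgf and a digit, fgfr, spry or spred, and as dusp6, etv1, etv4 and etv5. This gave 55 of the 51017 gene IDs counted, and no ID carried the symbol etv4 or etv5. The members were 17 ligand genes, 5 genes of intracellular FGF homologous factors, 8 receptor tyrosine kinase genes, 2 genes of the kinase-less receptor fgfrl1, 7 Sprouty genes, 5 Spred genes, 2 dusp6 genes and 2 etv1 genes. The remaining 7 (fgfr1op.L, fgfr1op2.L and .S, spryd3.L and .S, spryd4.S and spryd7.L) share only the start of a name and are not known as FGF pathway genes. They are kept in the counts because the rule takes them, and counts without them are given as well.

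An animal cap is the tissue at the top of the blastula, which becomes epidermis when cultured alone and can be turned to mesoderm by added growth factors. All explants came from wild-type embryos, were cut at stage 8, received no treatment beyond culture in a dilute saline with an antibiotic, and were collected at stage 9, 10.5, 11.5 or 12.5. Each stage has 2 libraries, replicates A and B, marked ExpA and ExpB in the sample titles. The labels do not say what the letters stand for or how many explants a library holds, so the p-values measure only the spread between these libraries. Library totals ran from 33170889 to 45511790 counts. Levels are CPM, counts per 1000000 counted reads with library sizes scaled by TMM factors (edgeR's trimmed mean of M values). They are not divided by gene length, so levels are compared between stages and not between genes, and read shares and copy ratios are given for how they change between stages. In such bulk samples, fewer cells of a kind and less RNA per cell cannot be told apart.

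The epidermis label was set against marker genes. Of 29 tested epidermis markers, 26 were higher and 1 lower at stage 12.5 than at stage 9. Over all tested genes it was 31.9% higher and 28.9% lower. The summed level of the epidermis markers was 15729.8 and 11678 CPM at stage 12.5, against 2476 and 2463 CPM at stage 9. Of 17 tested neural markers, 8 were higher and 4 lower at stage 12.5 than at stage 9. Their median log2 fold change was 1.04, against 0.13 over all genes. Their summed level lay between 720.0 and 1107 CPM in every library, and most of it came from the sox3 copies. sox3.S alone had 571 and 622 CPM at stage 9 and 305 and 362 CPM at stage 12.5. The sum thus says little about the other neural markers. Markers of mesoderm and endoderm were not at 0, and of 27 tested, 4 were higher and 6 lower at stage 12.5 than at stage 9. The summed level of all 36 was 592 and 523 CPM at stage 12.5, against 160 and 209 CPM at stage 9. Without the abundant szl genes, which led that difference, the sum lay between 51.2 CPM in stage 12.5 replicate A and 261 CPM in stage 10.5 replicate B, with 25 to 30 of 34 genes above 0 in a library. myf5.S, nodal1.L and nodal2.S were at 0 in all 8 libraries, while vegt.S alone had between 11.9 CPM in stage 12.5 replicate A and 103 CPM in stage 10.5 replicate B.

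FGFs are mostly secreted proteins that bind receptor tyrosine kinases together with heparan sulfate. The receptors act through Ras and the kinase ERK, and ERK activity raises the transcription of its own attenuators, Sprouty, Spred and dusp6, and of ETS factors of the etv1, etv4 and etv5 family. In the frog gastrula FGF signalling is best known for maintaining mesoderm and for a part in neural induction. Many genes have an L and an S copy (homeologs), since this frog carries a pair of ancestral subgenomes.

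Of the 55 members, 41 had enough counts to be tested. The 14 that did not stayed at or below 0.966 CPM in every library (48 counts, in fgf13.S), and fgf10.S had 0 counts in all 8. All genes entered 1 fit with edgeR's quasi-likelihood F test, and a gene was called at a Benjamini-Hochberg adjusted p under 0.05. At stage 10.5 against stage 9, 24 of the 41 tested members were called, 10 higher and 14 lower, while 48.3% of all 28490 tested genes were called (25.0% higher and 23.3% lower). Without the name matches it was 20 of 34, 10 in each direction. The median log2 fold change was -0.60 over the 41 members, -0.37 over the 34 without the name matches and 0.11 over all tested genes. At stage 12.5 against stage 9, 24 members were called, 8 higher and 16 lower, beside 60.8% of all genes (31.9% higher and 28.9% lower). Without the name matches it was 20 of 34, 8 higher and 12 lower. A joint test over the 4 stages also called 24 members (20 of 34 without the name matches), beside 52.5% of all genes. With the replicate letter as a block, a fit that compares A with A and B with B, 27 members were called at stage 10.5 (58.4% of all genes), 29 at stage 12.5 (69.1%) and 30 over the 4 stages (64.5%). Without the name matches these were 22, 23 and 24 of 34. The total shares called by stage (58.5% of the 41 members at stage 10.5, at stage 12.5 and over the 4 stages) lie near those of all genes. By direction, lower calls outnumbered higher ones among the 41 members at stages 10.5 and 12.5, and not among all genes. Without the name matches this lean was absent at stage 10.5. It was not tested, and what follows describes single members.

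**Figure D1:**
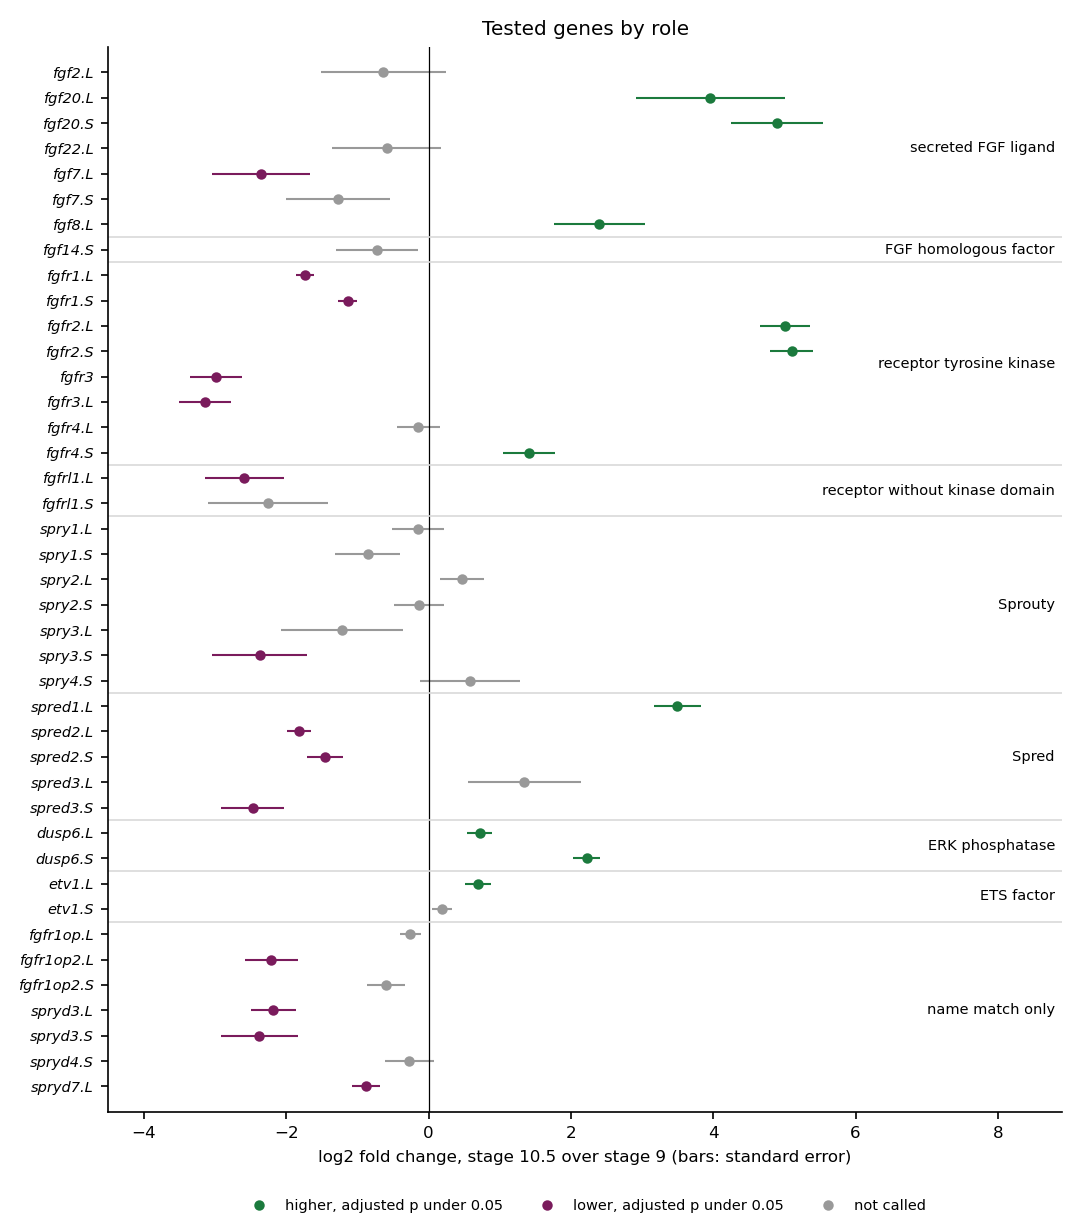
Log2 fold change of the 41 tested members at stage 10.5 over stage 9 (horizontal axis, points with standard errors), grouped by role down the page and coloured by call. Both fgfr2 copies lie near 5, both fgfr3 genes near -3, and the Sprouty genes lie around 0 or below; the fitted value of fgf20.S depends on a prior count, since stage 9 held 1 and 2 counts.

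The receptor genes changed in different directions. Of the 8 tyrosine kinase genes, 7 were called at stage 10.5 against stage 9, 3 higher and 4 lower, beside 25.0% and 23.3% of all genes. FGFR2 is the receptor whose IIIb splice form is typical of epithelia in mammals, and counts per gene do not separate splice forms. fgfr2.L had 4.28 and 2.96 CPM at stage 9 (replicates A and B, in this order throughout), then 140.3 and 92.8 (stage 10.5), 210.1 and 159.6 (stage 11.5), and 262 and 169 (stage 12.5). Its S copy had 1.27 and 0.684 CPM at stage 9, then 35.6 and 31.8 (stage 10.5), 65.9 and 68.3 (stage 11.5), and 116 and 88.7 (stage 12.5). For both copies every later library lay far above both stage 9 libraries, and the level was higher at each successive stage within A and within B. The log2 fold change at stage 10.5 was 5.01 ± 0.36 (SE, adjusted p = 6.5e-05, edgeR) for fgfr2.L and 5.10 ± 0.31 (adjusted p = 4.1e-05, edgeR) for fgfr2.S. At stage 12.5 against stage 9 it was 5.89 ± 0.37 and 6.70 ± 0.32, in that order, which is 59.4-fold and 104-fold.

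FGFR1 is the receptor most closely tied to mesoderm formation in the frog. fgfr1.L had 108 and 109 CPM at stage 9, then 31.9 and 33.4 (stage 10.5), 39.7 and 38.2 (stage 11.5), and 37.6 and 39.9 (stage 12.5). fgfr1.S had 162 and 165 CPM at stage 9, then 76.9 and 71.4 (stage 10.5), 101 and 109 (stage 11.5), and 147 and 127 (stage 12.5). The replicates lay close together, and both copies fell at stage 10.5, with log2 fold changes of -1.73 ± 0.13 (adjusted p = 6.9e-05, edgeR) and -1.14 ± 0.13 (adjusted p = 3.9e-04, edgeR). They then parted. At stage 12.5 fgfr1.L was still lower than at stage 9 (-1.49 ± 0.12, adjusted p = 5.1e-05, edgeR), whereas fgfr1.S differed from it by -0.25 ± 0.13 and was not called (adjusted p = 0.13, edgeR).

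Both fgfr3 genes were low after stage 9. FGFR3 restrains bone growth in mammals. The gene listed as fgfr3, without a copy letter, had 21.5 and 25.0 CPM at stage 9, then 1.99 and 3.84 (stage 10.5), 2.74 and 3.64 (stage 11.5), and 2.19 and 2.22 (stage 12.5). fgfr3.L had 15.5 and 16.0 CPM at stage 9 and between 1.02 and 2.16 in the 6 later libraries. No later library of either gene came near stage 9, and the log2 fold changes at stage 10.5 were -2.99 ± 0.36 (adjusted p = 5.0e-04, edgeR) and -3.15 ± 0.37 (adjusted p = 4.3e-04, edgeR).

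The fgfr4 copies differed from each other. FGFR4 responds to endocrine FGF19 in mammalian liver. fgfr4.S had 62.0 and 63.2 CPM at stage 9, then 209.9 and 122 (stage 10.5), 241 and 169 (stage 11.5), and 319.5 and 165 (stage 12.5). Replicate A exceeded B at the 3 later stages, and both exceeded stage 9. The log2 fold change was 1.41 ± 0.37 at stage 10.5 (adjusted p = 0.016, edgeR) and 1.95 ± 0.37 at stage 12.5 (adjusted p = 0.0028, edgeR). The call at stage 10.5 was lost when stage 9 replicate A (adjusted p = 0.067, edgeR), stage 9 replicate B (0.062) or stage 10.5 replicate A was left out (log2 fold change 0.95, adjusted p = 0.10 for the last), while the call at stage 12.5 held without any 1 library. fgfr4.L had 85.1 and 118 CPM at stage 9, then 112 and 71.4 (stage 10.5), 118 and 95.6 (stage 11.5), and 120.3 and 75.7 (stage 12.5). Its stages overlapped, and its log2 fold change at stage 12.5 was -0.05 ± 0.30 (adjusted p = 0.89, edgeR).

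**Figure D2:**
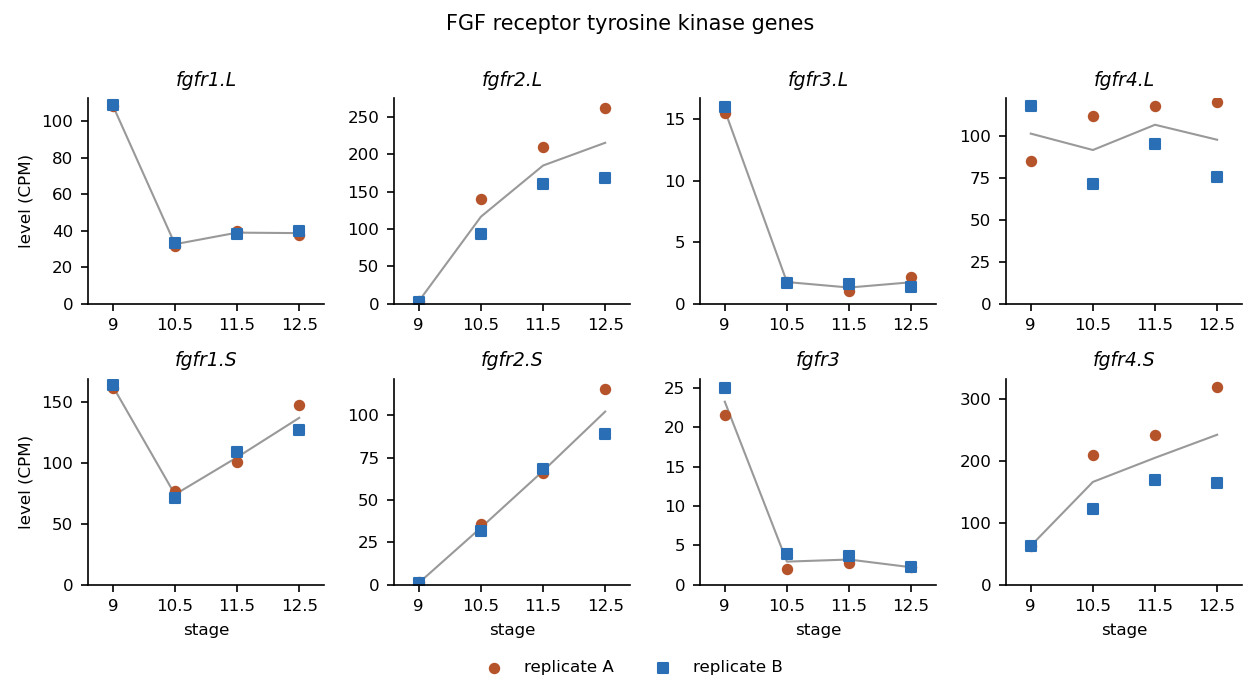
Level in CPM (vertical axis, linear from 0, scaled per gene) of the 8 receptor tyrosine kinase genes at the 4 stages (horizontal axis), with a point per library and a line through the mean of both. Both fgfr2 genes lie below 5 CPM at stage 9 and above 30 CPM in each later library, both fgfr3 genes lie at 15.5 CPM or more at stage 9 and at 3.84 CPM or less later, and fgfr1.S returns toward its stage 9 level while fgfr1.L does not.

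The receptors' share of reads changed with these shifts. Of all reads counted on the 8 tyrosine kinase genes, the fgfr2 copies held 1.21% and 0.730% at stage 9, then 28.8% and 29.1% (stage 10.5), 35.4% and 35.4% (stage 11.5), and 37.5% and 38.5% (stage 12.5). The fgfr1 copies held 58.7% and 54.7% at stage 9, then 17.8% and 24.5% (stage 10.5), 18.0% and 22.8% (stage 11.5), and 18.4% and 25.0% (stage 12.5). For fgfr3 the share was 0.432% and 0.535% at stage 12.5, against 8.05% and 8.21% at stage 9. The fgfr4 copies held 32.0% and 36.3% at stage 9, then 52.8% and 45.2% (stage 10.5), 46.1% and 41.0% (stage 11.5), and 43.7% and 36.0% (stage 12.5). These are shares of reads and not of molecules, because longer transcripts give more reads. The fgfr2 share differed by under 2 percentage points between replicates at every stage, and the fgfr1 share was higher in B at the 3 later stages.

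The receptor fgfrl1 binds FGFs but lacks the kinase domain. fgfrl1.L had 3.20 and 3.22 CPM at stage 9, then 0.763 and 0.301 (stage 10.5), 0.483 and 0.537 (stage 11.5), and 0.261 and 0.202 (stage 12.5). It fell at stage 10.5 (log2 fold change -2.59 ± 0.55, adjusted p = 0.0068, edgeR) and was lower still at stage 12.5 (-3.78 ± 0.60, adjusted p = 0.0011, edgeR). Without stage 10.5 replicate A the first of these values was -3.41. fgfrl1.S had 1.38 and 0.362 CPM at stage 9, and its log2 fold change of -2.26 ± 0.84 at stage 10.5 was called with the replicate block (adjusted p = 0.049, edgeR) and not by stage alone (0.059).

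Few ligand genes had appreciable counts, and 1 of the 17, fgf8.L, reached a stage mean of 5 CPM. FGF8 acts in mesoderm maintenance and neural patterning. fgf8.L had 1.63 and 1.59 CPM at stage 9, then 6.60 and 10.4 (stage 10.5), 2.79 and 3.37 (stage 11.5), and 0.948 and 4.13 (stage 12.5). Stage 10.5 stood above all other libraries, and the stage 12.5 replicates lay on either side of stage 9. The rise at stage 10.5 was 2.40 ± 0.64 on the log2 scale (adjusted p = 0.017, edgeR). That call was lost without stage 9 replicate A (adjusted p = 0.064, edgeR), stage 9 replicate B (0.064) or stage 10.5 replicate B (0.077). At stage 12.5 against stage 9 the log2 fold change was 0.66 ± 0.62 (adjusted p = 0.38, edgeR), or -0.77 without stage 12.5 replicate B.

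FGF20 belongs to the subfamily of FGF9 and FGF16. fgf20.S had 1 and 2 counts at stage 9 (0.0209 and 0.0403 CPM), then 1.11 and 0.904 CPM (stage 10.5), 1.05 and 1.67 (stage 11.5), and 1.40 and 1.91 (stage 12.5). The 38 and 36 counts of stage 10.5 over those of stage 9, pooled and scaled for depth, gave a ratio of 32.6, with an exact 95% interval of 10.7 to 161 that covers counting error only. At stage 12.5 the ratio was 55.0 (18.4 to 271). It was called at both stages (adjusted p = 7.4e-04 and 2.4e-04, edgeR). fgf20.L had 0.0418 and 0.121 CPM at stage 9, then 0.968 and 1.66 (stage 10.5), 0.537 and 0.716 (stage 11.5), and 0.131 and 1.01 (stage 12.5). It rose at stage 10.5 (log2 fold change 3.96 ± 1.05, adjusted p = 0.017, edgeR), a call lost without stage 9 replicate A (0.078) or stage 10.5 replicate B (0.066). With stage 9 replicate B left out the value was 4.87. Its call at stage 12.5 (2.77 ± 1.03, adjusted p = 0.048, edgeR) was lost when any library other than stage 12.5 replicate A was left out, and without stage 12.5 replicate B the value was 0.65 (adjusted p = 0.60). It was 3.56 without stage 12.5 replicate A, and 3.64 with stage 9 replicate B left out. Scaling by library size alone also ended the call (2.52, adjusted p = 0.074, edgeR).

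fgf7.L had its highest libraries at stage 9. FGF7 is a ligand of the epithelial form of FGFR2 in mammals. fgf7.L had 2.15 and 1.37 CPM at stage 9, then 0.381 and 0.301 (stage 10.5), 0.0805 and 0.268 (stage 11.5), and 0.196 and 0.327 (stage 12.5). It fell by 2.36 ± 0.69 on the log2 scale at stage 10.5 (adjusted p = 0.025, edgeR), a call lost without stage 9 replicate A (0.11), stage 10.5 replicate A (0.099) or stage 10.5 replicate B (0.13). At stage 12.5 it fell by 2.72 ± 0.71 (adjusted p = 0.012, edgeR), lost without stage 9 replicate A (0.054) or stage 12.5 replicate A (0.066). fgf7.S and fgf2.L, the basic FGF gene, were called at stage 12.5 against stage 9 only with the replicate block, at -1.87 ± 0.61 (adjusted p = 0.023, edgeR) and -2.08 ± 0.56 (0.010), against 0.075 and 0.088 by stage alone. In vertebrates a neighbouring gene is transcribed antisense to fgf2, and the libraries carry no strand, so reads of both cannot be told apart. fgf22.L was tested and not called, at 0.161 to 0.522 CPM. The fgf1, fgf3.S, fgf4, fgf9.S, fgf10, fgf16.S and fgf21.S genes stayed at or below 0.403 CPM in every library and were not tested. Of these, fgf10.L had 11 and 11 counts at stage 12.5, against 0 and 0 at stage 9, which is at least 5.17-fold higher against a floor of 3 counts per library. fgf3.S had 4 and 2 counts (stage 9), 4 and 6 (stage 10.5), 10 and 8 (stage 11.5), and 3 and 0 (stage 12.5).

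The homologous factors fgf12, fgf13 and fgf14 stay inside the cell, where they are known as partners of sodium channels. fgf14.S had 12.37 and 3.24 CPM at stage 9, then 5.46 and 3.97 (stage 10.5), 5.31 and 3.43 (stage 11.5), and 6.96 and 6.07 (stage 12.5). Stage 9 replicate A stood above the other 7 libraries and no change was called. fgf12.S, not tested, had 0 and 0 counts at stage 12.5, against 29 and 4 at stage 9.

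The Sprouty genes encode intracellular inhibitors of receptor tyrosine kinase signalling and are classical transcriptional targets of FGF. Of 7 tested, 1 was called at stage 10.5 against stage 9 and 4 at stage 12.5 against stage 9, all lower. Of all genes, 23.3% and 28.9% were lower in these comparisons. spry1.S had 24.4 and 27.0 CPM at stage 9, then 10.6 and 17.8 (stage 10.5), 7.32 and 10.2 (stage 11.5), and 3.01 and 8.06 (stage 12.5). It was lower at each successive stage within A and within B. Its log2 fold change at stage 12.5 was -2.21 ± 0.47 (adjusted p = 0.0050, edgeR), and -3.10 without stage 12.5 replicate B. At stage 10.5 it was called with the replicate block (-0.93 ± 0.27, adjusted p = 0.019, edgeR) and not by stage alone (0.16).

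spry1.L had 12.39 and 17.3 CPM at stage 9, then 9.74 and 17.0 (stage 10.5), 10.01 and 10.9 (stage 11.5), and 5.36 and 9.32 (stage 12.5). It fell by 1.01 ± 0.37 on the log2 scale at stage 12.5 (adjusted p = 0.045, edgeR), and the call was lost without stage 9 replicate B (0.16), stage 11.5 replicate A (0.063), stage 11.5 replicate B (0.063) or stage 12.5 replicate A (0.20). It was also lost with RLE size factors (0.053), with a filter of at least 1 CPM in 2 libraries (0.063) and with only the 2 stages fitted (0.077). spry2.L had 19.6 and 12.6 CPM at stage 9, then 18.3 and 26.3 (stage 10.5), 17.1 and 14.9 (stage 11.5), and 8.33 and 12.6 (stage 12.5). spry2.S had 21.1 and 20.4 CPM at stage 9, then 15.2 and 22.6 (stage 10.5), 15.7 and 14.3 (stage 11.5), and 7.06 and 15.0 (stage 12.5). Both spry2 genes had their lowest library in stage 12.5 replicate A. Neither was called by stage alone, and spry2.S was called at stage 12.5 against stage 9 with the replicate block (-0.97 ± 0.29, adjusted p = 0.016, edgeR).

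The spry3 genes were low throughout. spry3.S had 1.65 and 0.966 CPM at stage 9, then 0.352 and 0.151 (stage 10.5), 0.322 and 0.418 (stage 11.5), and 0.261 and 0.252 (stage 12.5). It fell at stage 10.5 (log2 fold change -2.38 ± 0.66, adjusted p = 0.020, edgeR) and at stage 12.5 (-2.34 ± 0.66, 0.017). The first call was lost without stage 9 replicate A (0.11) or stage 10.5 replicate B (0.13), and the value was -3.10 without stage 10.5 replicate A. The second was lost without stage 9 replicate A (0.090), stage 12.5 replicate A (0.067) or stage 12.5 replicate B (0.072). spry3.L had 2.59 and 0.684 CPM at stage 9, then 0.880 and 0.528 (stage 10.5), 0.429 and 0.179 (stage 11.5), and 0.196 and 0.0504 (stage 12.5). It was called at stage 12.5 (-3.74 ± 0.99, adjusted p = 0.013, edgeR), a call lost without stage 9 replicate A (-2.52, 0.077) or stage 12.5 replicate B (-3.04, 0.074). The value was -4.95 with stage 12.5 replicate A left out and -4.45 with stage 9 replicate B left out. spry4.S was not called, at 0.425 to 1.66 CPM.

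Spred proteins sit at the membrane and hold Ras in check by recruiting neurofibromin. Of 5 Spred genes tested, 1 rose and 3 fell at stage 10.5 against stage 9, beside 25.0% and 23.3% of all genes. spred1.L had 1.32 and 1.01 CPM at stage 9, then 10.3 and 16.0 (stage 10.5), 7.19 and 8.47 (stage 11.5), and 6.47 and 5.95 (stage 12.5). All later libraries exceeded both at stage 9, with the highest pair at stage 10.5, and the log2 fold change was 3.50 ± 0.33 at stage 10.5 (adjusted p = 1.7e-04, edgeR) and 2.41 ± 0.32 at stage 12.5 (4.4e-04). spred2.L had 64.5 and 63.3 CPM at stage 9, then 16.9 and 19.3 (stage 10.5), 21.0 and 25.2 (stage 11.5), and 29.8 and 27.7 (stage 12.5). It was lowest at stage 10.5 (-1.82 ± 0.16, adjusted p = 1.5e-04, edgeR) and still lower at stage 12.5 than at stage 9 (-1.15 ± 0.16, 6.0e-04).

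spred2.S had 35.9 and 25.9 CPM at stage 9, then 11.8 and 10.8 (stage 10.5), 10.2 and 9.67 (stage 11.5), and 9.64 and 6.58 (stage 12.5). No later library reached its stage 9 level, and its log2 fold change was -1.46 ± 0.26 at stage 10.5 (adjusted p = 0.0028, edgeR) and -1.93 ± 0.26 at stage 12.5 (4.9e-04). spred3.S had 7.92 and 9.18 CPM at stage 9, then 1.11 and 1.96 (stage 10.5), 1.40 and 1.55 (stage 11.5), and 1.31 and 2.47 (stage 12.5). It fell at stage 10.5 by 2.47 ± 0.45 on the log2 scale (adjusted p = 0.0032, edgeR), and no later library approached stage 9. spred3.L, at 0.167 to 0.719 CPM, was not called.

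dusp6 encodes the cytoplasmic phosphatase that removes phosphate from ERK. dusp6.S had 6.98 and 8.82 CPM at stage 9, then 40.8 and 33.1 (stage 10.5), 48.0 and 42.5 (stage 11.5), and 47.6 and 48.9 (stage 12.5). It rose by 2.22 ± 0.19 on the log2 scale at stage 10.5 (adjusted p = 1.2e-04, edgeR), which is 4.67-fold, and stood 6.10-fold higher at stage 12.5. dusp6.L had 14.9 and 12.9 CPM at stage 9, then 23.6 and 22.1 (stage 10.5), 24.5 and 22.5 (stage 11.5), and 16.8 and 18.7 (stage 12.5). Its rise of 0.72 ± 0.17 at stage 10.5 (adjusted p = 0.011, edgeR) was lost without stage 9 replicate B (0.078) or stage 10.5 replicate A (0.078), and at stage 12.5 it was not called (0.35 ± 0.17, adjusted p = 0.11, edgeR).

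The etv1 genes encode an ETS transcription factor of the ERK-responsive PEA3 group. etv1.S had 251 and 239 CPM at stage 9, then 268 and 289 (stage 10.5), 265 and 244 (stage 11.5), and 222 and 276 (stage 12.5). Its stages overlapped and no change was called. etv1.L had 113 and 100.2 CPM at stage 9, then 155 and 191 (stage 10.5), 157 and 152 (stage 11.5), and 128 and 171 (stage 12.5). All 6 later libraries lay above stage 9, by 0.69 ± 0.18 on the log2 scale at stage 10.5 (adjusted p = 0.014, edgeR) and 0.49 ± 0.18 at stage 12.5 (0.044). The first call was lost without stage 9 replicate B (0.082) or stage 10.5 replicate B (0.089), and the second when any library other than stage 12.5 replicate A was left out (up to 0.25). The second was also lost with scaling by library size alone (log2 fold change 0.18, adjusted p = 0.50, edgeR) and with only the 2 stages fitted (0.070). RefSeq's gene table for this species gives Etv1 as a synonym of etv4.L, so the naming of this copy differs between sources.

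**Figure D3:**
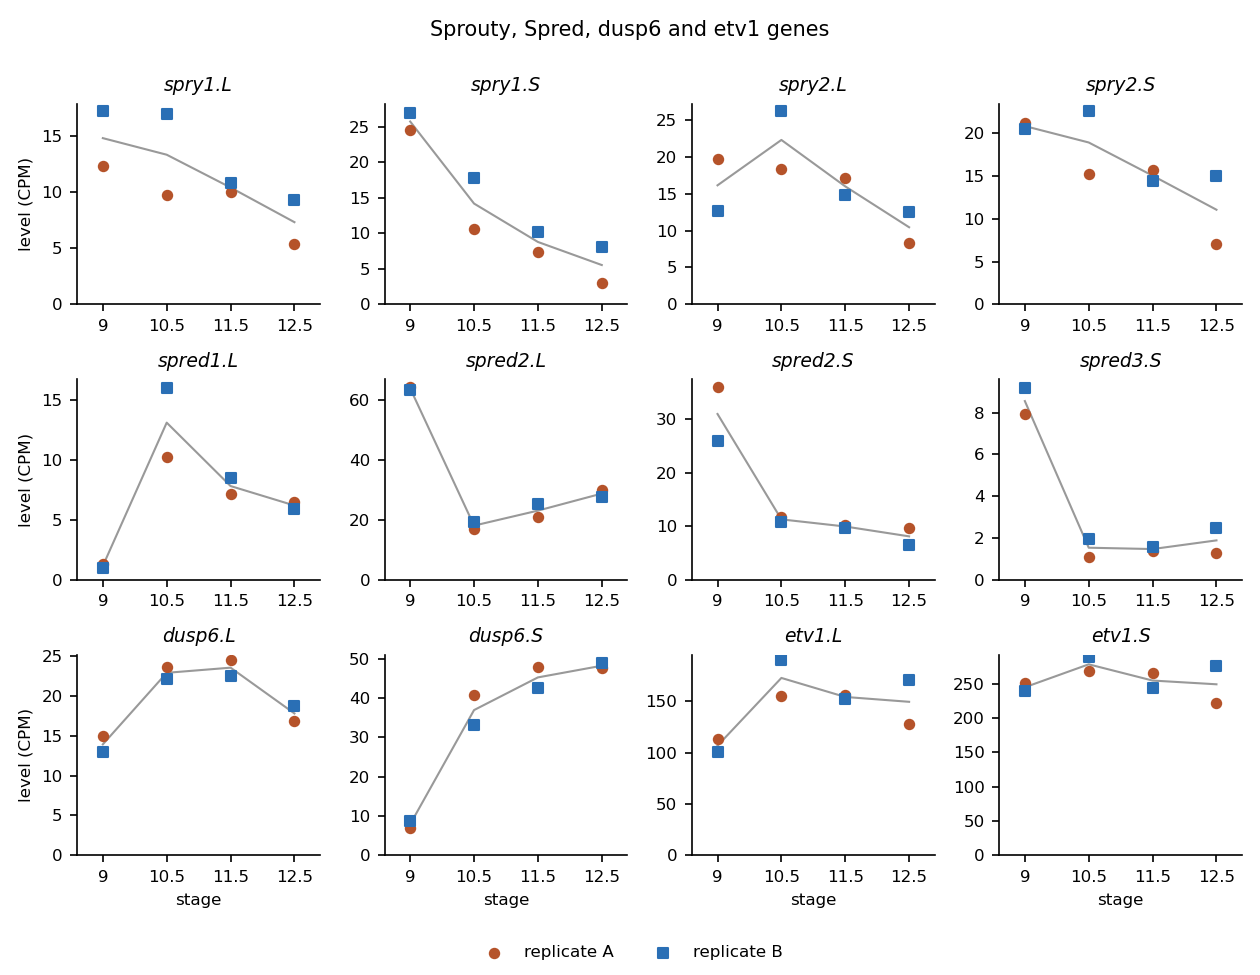
Level in CPM (vertical axis, linear from 0, scaled per gene) of Sprouty, Spred, dusp6 and etv1 genes with a stage mean of at least 5 CPM, at the 4 stages (horizontal axis), with a point per library and a line through the mean of both. spred1.L and dusp6.S lie higher in every later library than at stage 9, spred2 and spred3.S lie lower, and spry1.S is lower at each successive stage.

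After stage 10.5 no member was called by edgeR's quasi-likelihood test, at stage 11.5 against stage 10.5 or at stage 12.5 against stage 11.5. The share of all genes called was 0% at both steps. An unadjusted p under 0.05 (edgeR) was found for 4 of the 41 tested members at each step. Of all 28490 tested genes, 2131 had one at the first step and 4246 at the second. With the replicate block the count of members called stayed at 0, beside 0.0737% and 4.58% of all genes called. DESeq2 by stage called fgfr2.S higher at stage 11.5 against stage 10.5 (log2 fold change 1.00 ± 0.26, adjusted p = 0.019, DESeq2). With the block it called 3 members higher there, namely fgfr2.S, fgfr2.L (0.69 ± 0.14, adjusted p = 9.0e-05, DESeq2) and fgfr1.S (0.50 ± 0.14, 0.014). At stage 12.5 against stage 11.5 it called fgfr2.S (0.61 ± 0.22, adjusted p = 0.033, DESeq2) and fgfr1.S (0.41 ± 0.14, 0.031). Over all 28490 genes DESeq2 called 244 by stage and 1233 with the block at stage 11.5 against stage 10.5. The counts were 1550 and 3536 at stage 12.5 against stage 11.5. In the authors' deposited table for stage 11.5 against stage 10.5, fgfr2.S was higher (log2 fold change 0.86, adjusted p 0.0019) and fgf8.L lower (-1.001, adjusted p 0.021). The authors' deposited table for stage 12.5 against stage 11.5 held no member with an adjusted p under 0.05, and that for stage 10.5 against stage 9 held 10 higher and 15 lower. The extra gene in that last table was spry1.S (-0.81, adjusted p 0.028 in the authors' deposited table). The matching shares of all genes in the authors' tables were not counted, so these member counts are not read as a trait of the members.

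The L and S copies of a gene were compared through log2 of L over S, each with 1 CPM added, which was tested over the 4 stages with limma. Gene length cancels in the change of such a ratio only where both copies lie well above the added 1 CPM. It does not for spred3 (spred3.L at 0.719 CPM or less), fgfrl1 (3.22 CPM or less), spry3 (2.59 CPM or less), fgf7 (2.15 CPM or less) and fgf20 (1.91 CPM or less). Nor does it for fgfr2 at stage 9, where fgfr2.S had 1.27 and 0.684 CPM. The same holds after stage 9 for fgfr1op2 (fgfr1op2.L at 1.40 to 3.19 CPM) and spryd3 (spryd3.S at 0.327 to 1.06 CPM). The size of their changes depends on the added 1 CPM. Of 15 pairs with both copies tested, 9 changed, beside 44.0% of all 4784 pairs tested, and 11 with the replicate block (62.8% of all pairs). The 8 pairs other than fgfr1op2 were dusp6, fgfr4, fgfr1, spred3, etv1, fgfrl1, spry1 and spred2. Pairs were formed by symbol, and the naming of etv1.L differs between sources, so whether etv1.L and etv1.S are homeologs is uncertain. How reads common to both copies were assigned is not given in the sources used here, so ratios of closely similar copies are uncertain.

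For dusp6 the log2 ratio was 0.99 and 0.50 at stage 9, then -0.76 and -0.56 (stage 10.5), -0.94 and -0.89 (stage 11.5), and -1.45 and -1.34 (stage 12.5). The ratio was lower in every later library than in both at stage 9 (adjusted p = 8.6e-04, limma). For fgfr4 the log2 ratio was 0.45 and 0.89 at stage 9, then -0.90 and -0.77 (stage 10.5), -1.02 and -0.81 (stage 11.5), and -1.40 and -1.11 (stage 12.5) (adjusted p = 6.2e-04, limma). For fgfr1 it was -1.94 and -1.65 at stage 12.5, against -0.57 and -0.59 at stage 9 (adjusted p = 0.0024, limma). The fgfr1 ratio thus fell, while for spred3 it moved the other way, with means of -0.95 ± 0.74 at stage 12.5 and -3.01 ± 0.11 at stage 9 (SD, n = 2 each, adjusted p = 0.0068, limma). The size of the spred3 change depends on the added 1 CPM.

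Changes in the other called pairs were each lost without some libraries. The mean log2 ratio of spry1 was 0.43 at stage 12.5 and -0.77 at stage 9 (adjusted p = 0.026, limma), a call lost without any library other than stage 11.5 replicate B and the stage 12.5 pair (0.052 to 0.14). That of fgfrl1 was -0.42 at stage 12.5 and 1.23 at stage 9 (adjusted p = 0.022, limma), lost without stage 9 replicate B (0.078) or stage 12.5 replicate B (0.067). That of etv1 was -0.74 at stage 12.5 and -1.19 at stage 9 (adjusted p = 0.017, limma), lost without stage 9 replicate A (0.058) or B (0.12). For spred2 it was 1.73 at stage 12.5 and 1.04 at stage 9 (adjusted p = 0.044, limma), lost without any 1 of the 8 libraries (0.052 to 0.17). The ratios of fgfr2 and fgf20 were called only with the replicate block (adjusted p = 0.014 and 0.031, limma, against 0.12 and 0.075 by stage alone).

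**Figure D4:**
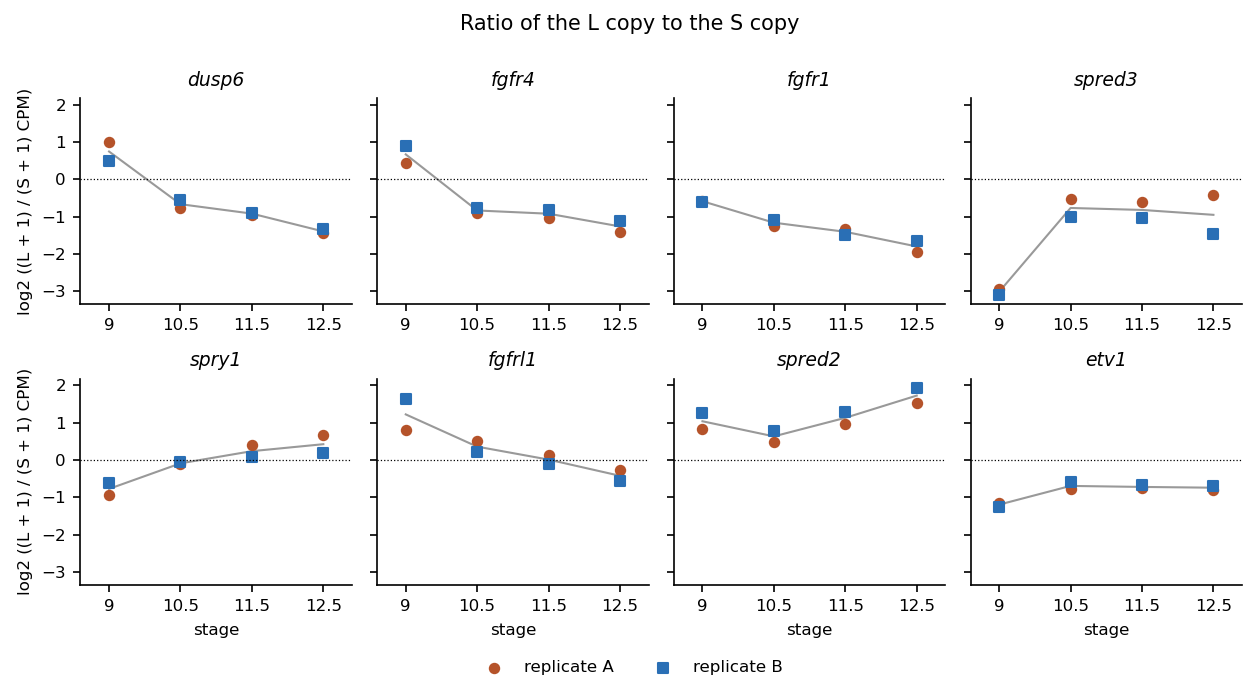
Log2 ratio of the L to the S copy, each with 1 CPM added (vertical axis), at the 4 stages (horizontal axis) for the 8 called pairs other than fgfr1op2, with a point per library, a line through the mean of both and a dotted line at 0. The dusp6 and fgfr4 ratios lie above 0 at stage 9 and below 0 at all later stages in both replicates. The pairing of etv1.L with etv1.S rests on the symbols alone.

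The other genes of the pathway were counted by list. Of 36 tested genes that carry the signal from receptor to ERK, 1 rose and 22 fell at stage 10.5 against stage 9, and 2 rose and 27 fell at stage 12.5 against stage 9. Of all genes, 25.0% rose and 23.3% fell at stage 10.5, and 31.9% rose and 28.9% fell at stage 12.5. The median log2 fold changes of the list were -1.004 and -1.49, against 0.11 and 0.13 over all genes. Both copies of sos1, the exchange factor that loads Ras, were low: sos1.S had 2.58 and 4.37 CPM at stage 10.5, against 32.6 and 38.3 at stage 9, and sos1.L had 4.58 and 4.35 CPM, against 42.0 and 41.1. hras.L, a Ras gene, was the 1 that rose, with 99.8 and 68.3 CPM at stage 10.5, against 47.3 and 43.6 at stage 9. The summed level of this list was 1423 and 1377 CPM at stage 10.5 and 2452 and 2483 CPM at stage 9.

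Co-receptors and genes of heparan sulfate were called about as often in each direction as all genes, with 5 of 24 tested higher (20.8%, against 25.0% of all genes) and 6 lower (25.0%, against 23.3%) at stage 10.5. The syndecan gene sdc4.L had 109 and 67.4 CPM at stage 10.5, against 22.0 and 16.6 at stage 9. The sulfotransferase gene hs6st1.L had 14.2 and 13.0 CPM, against 83.3 and 142 at stage 9. Of 16 other attenuators of ERK signalling, 4 rose (25.0%) and 6 fell (37.5%). The ERK phosphatase gene dusp5.L had 97.9 and 135 CPM at stage 10.5 and 48.1 and 33.2 at stage 9, whereas dusp4.L had 3.26 and 3.72 CPM at stage 10.5 and 23.0 and 22.3 at stage 9. Of 25 nuclear effectors of ERK, 4 rose (16.0%) and 9 fell (36.0%). myc.L had 147 and 123 CPM at stage 10.5, against 18.5 and 13.0 at stage 9, and ets1.S had 13.8 and 13.1 CPM, against 178 and 201.

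The list of mesodermal targets of FGF, which includes cdx genes, brachyury (t) and myod1, gave 5 higher and 0 lower of 13 tested at stage 10.5 against stage 9. Of all genes, 25.0% were higher and 23.3% lower. The largest called rises of the list were in cdx genes (cdx1.S, cdx4.L and cdx4.S). Both brachyury copies, t.L and t.S, were lower at stage 10.5 than at stage 9 in replicate A and higher in replicate B. At stage 12.5 against stage 9, 6 targets were higher and 2 lower, beside 31.9% and 28.9% of all genes. The 2 lower genes were both copies of the muscle regulator myod1. The summed level of the list was 23.7 and 14.7 CPM at stage 9, then 127 and 320 (stage 10.5). It was 130 and 233 CPM at stage 11.5, and 65.9 and 511 CPM at stage 12.5. Replicate B was above A at the 3 later stages.

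Of the 41 tested members, 9 were higher and 5 lower in B at all 4 stages. The matching share of all genes was not counted, so these counts are not read as a trait of the members. The genes named next were chosen after their values were seen. At stage 12.5 replicates B and A had 4.13 and 0.948 CPM of fgf8.L, 1.01 and 0.131 CPM of fgf20.L, and 8.06 and 3.01 CPM of spry1.S. fgfr4.S went the other way, with 165 and 319.5 CPM. Single mesodermal genes went both ways too. B and A had 99.5 and 6.99 CPM of cdx4.L and 9.65 and 1.24 CPM of t.S. For chrd.L they had 1.96 and 3.89 CPM. The eomes copies parted, with 4.64 and 6.04 CPM of eomes.L and 8.31 and 2.19 CPM of eomes.S. The summed mesoderm and endoderm markers had 523 and 592 CPM in B and A, or 173 and 51.2 CPM without szl. The part of these mesodermal genes in the differences between stages was not tested. A comparison of letter B over letter A with stage as a term, chosen after seeing the data, called 1 of 41 members by edgeR, beside 9.16% of all genes (4.82% higher and 4.34% lower in B). This was fgfr2.L, lower in B at all 4 stages (log2 -0.54 ± 0.08, adjusted p = 0.0064, edgeR), with an adjusted p of up to 0.066 when both libraries of a stage were left out. spry1.L and spry1.S were higher in B at all 4 stages without being called (adjusted p = 0.067 and 0.075, edgeR). Of the mesodermal targets, 3 of 13 were called higher in B, namely cdx4.L, cdx4.S and cdx2.S, and of the mesoderm and endoderm markers 2 of 27. Neither list had a gene called lower in B, and chrd.L and eomes.L were not called (adjusted p = 0.090 and 0.78, edgeR). t.S was not called (adjusted p = 0.35, edgeR).

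**Figure D5:**
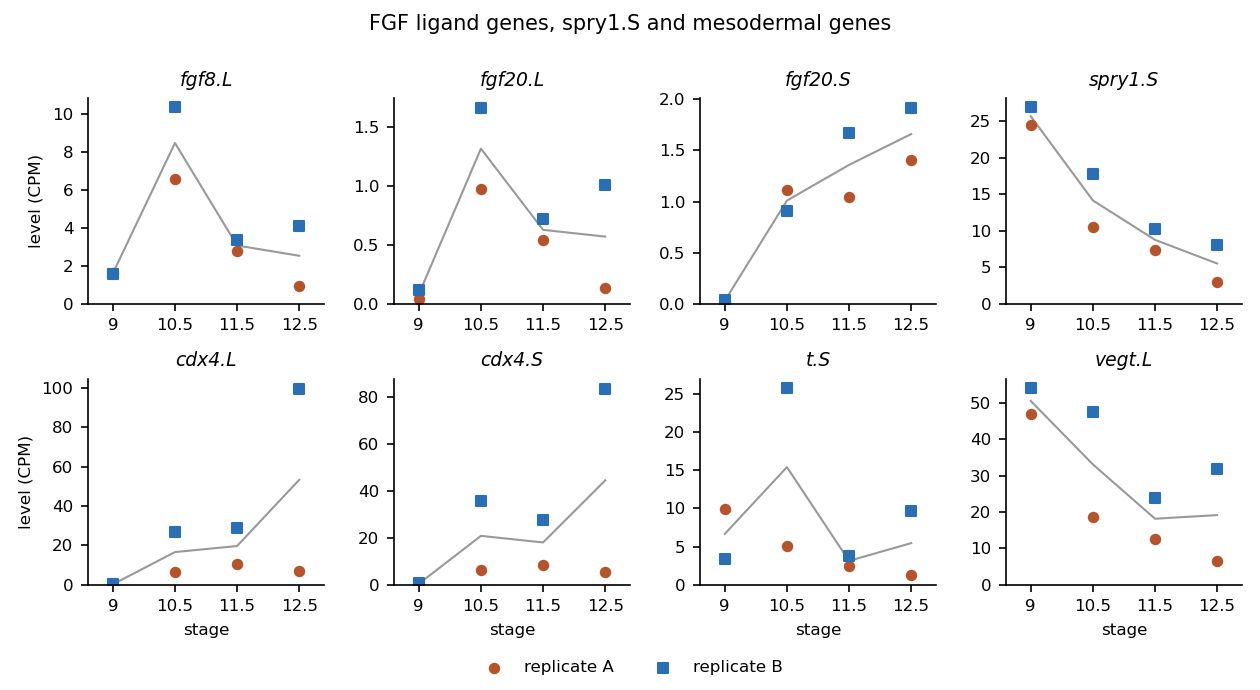
Level in CPM (vertical axis, linear from 0, scaled per gene) of 3 ligand genes, spry1.S and 4 mesodermal genes at the 4 stages (horizontal axis), with a point per library and a line through the mean of both. At stage 12.5 replicate B lies above replicate A in all 8 panels, which were chosen after their values were seen. Genes with A above B at that stage, among them fgfr4.S, chrd.L, eomes.L and szl, are not drawn. fgf8.L is highest at stage 10.5 in both replicates.

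Of the 7 name matches, 4 were lower at stage 10.5 and 4 at stage 12.5, beside 23.3% and 28.9% of all genes. These were fgfr1op2.L, spryd3.L and spryd3.S at both, spryd7.L at stage 10.5 and fgfr1op2.S at stage 12.5. With the replicate block, fgfr1op2.S was also lower at stage 10.5 (adjusted p = 0.013, edgeR, against 0.099 by stage alone), as were spryd4.S (0.037, against 0.14) and spryd7.L (0.027, against 0.095) at stage 12.5. Over the 8 libraries fgfr1op.L ran between 52.3 and 79.2 CPM, spryd7.L between 32.6 and 65.6, and the other 5 between 0.327 and 20.1. The call of spryd3.S at stage 10.5 was lost without stage 10.5 replicate B (adjusted p = 0.066, edgeR), as was that of spryd7.L (0.068). The call of fgfr1op2.S was lost without stage 9 replicate B (0.14), stage 12.5 replicate A (0.17) or stage 12.5 replicate B (0.066), and with RLE size factors (0.052), a filter of at least 1 CPM in 2 libraries (0.063) or only the 2 stages fitted (0.057).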

How the data were processed

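Poly-A RNA libraries without strand information were sequenced as read pairs, per the labels' protocols. The submitters' processing notes name FastQC 0.11.5, STAR 2.6.0b-1, featureCounts 1.6.3 and DESeq2 1.22.1. The genome build and annotation are not given in the sources used here, so no coordinates are printed. The authors deposited raw read counts per gene for each library, a table of gene symbols, and for each pair of successive stages a table of log2 fold changes with p-values and adjusted p-values.

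Counts were fitted with edgeR 4.0.16 under R 4.3.3 (TMM scaling, filterByExpr by stage, quasi-likelihood F test with stage as the only term over all 8 libraries, 4 residual degrees of freedom, coefficient of variation 0.362). P-values were adjusted by Benjamini-Hochberg over 28490 genes. Homeolog ratios were tested with limma 3.58.1. Alternatives included DESeq2 1.42.0. Folds against a stage with 0 counts are bounds against a floor of 3 counts per library, and those against 1 to 3 counts are ratios of pooled counts with an exact (Clopper-Pearson) 95% interval. Both cover counting error only. The procedure was tested on simulated data without an effect of the replicate letter, so that test does not cover the pairing described next.

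Letters A and B occur at every stage. Deviations of same-letter libraries from their stage means correlated across genes at all 6 pairs of stages (Pearson r 0.374 to 0.597), so the letters pair the libraries. A fit with the letter as a replicate block (coefficient of variation 0.198) is quoted where it changed the call of a member between 2 stages. Fits with 1 library left out had stage as the only term, so calls lost in them were not tried with the block. Standard errors by stage alone ignore the pairing. For fgfr4.S at stage 10.5 against stage 9 the block gave 1.33 ± 0.21 (adjusted p = 8.0e-04, edgeR), against 1.41 ± 0.37 by stage alone. Both libraries of a stage differed by 32.1 to 63.0 chi-square per degree of freedom, far beyond sampling noise.

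The members and gene lists were chosen with earlier results of these data known. Values in every library are given for members with a stage mean of at least 5 CPM and for most called members below that, and name matches are given by their range. List genes named are among those with the largest called changes in either direction, and not always the largest. A few were added after their values were seen.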

Additional observations from a re-analysis of the deposited data

How the results depend on the processing

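Of 48 results (a called member at stage 10.5 or 12.5 against stage 9), 32 stayed called under each of up to 16 alternatives, and no value changed sign. Other scaling, a 1 CPM filter or fitting only the 2 stages compared ended a call of fgf20.L, spry1.L, etv1.L and fgfr1op2.S at stage 12.5 against stage 9. Adding the replicate block changed none of the 48 and gave 27 members called at stage 10.5 against stage 9, 29 at stage 12.5 against stage 9 and 30 for any difference among the 4 stages, and 11 homeolog pairs. At stage 11.5 against stage 10.5, DESeq2 by stage called 1 member (244 of all 28490 genes) and DESeq2 with the replicate block 3 (1233 genes). At stage 12.5 against stage 11.5 DESeq2 with the replicate block called 2 (3536 genes). edgeR called 0 members at these steps. The cause was not tested. Leaving out 1 library at a time gave 17 to 24 members at stage 10.5 against stage 9, 20 to 23 at stage 12.5 against stage 9, 17 to 25 for any difference, and 5 to 8 homeolog pairs, the fewest without stage 9 replicate B. Fewer of all genes were also called in both comparisons with stage 9 when 1 library of either compared stage was left out. The lower member counts are therefore not read as a trait of the members. For the joint test and the homeolog pairs, the matching counts over all genes and all pairs are not given. Their lower counts are not read as a trait of the members either. With both libraries of a stage left out, the letter comparison called 4 members without stage 9 and 0 without stage 10.5. The matching shares of all genes are not given for these letter fits, so their counts are not compared with all genes. Scaling by library size alone moved the median log2 fold change of all genes at stage 12.5 against stage 9 to -0.19, from 0.13 under TMM. Depth limits the ligand genes: 3 counts correspond to 0.0604 to 0.0980 CPM.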
